A study of Mus musculus with 16 samples.

Results

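The regions described here were the H2AK119ub1 and H3K27me3 peaks of wild type mouse embryonic stem (ES) cells, 20480 of the 86279 peaks in the 10 peak lists analysed from the series. The H2AK119ub1 list held 8672 peaks and the H3K27me3 list held 11808. A peak was counted as carrying both marks when at least 1 bp of it was covered by a peak of the other mark, and otherwise as carrying H2AK119ub1 alone or H3K27me3 alone. "Alone" therefore means that no peak of the other mark was called over it, not that the other mark was absent.

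The series followed PCGF5, a subunit of a Polycomb complex, through neural differentiation of mouse ES cells by ChIP-seq, with 1 library per mark and cell state. The ES cells were 46C, a line with GFP placed under the Sox1 promoter, labelled wild type for both libraries used here. They grew on mouse embryo fibroblasts that had been inactivated with mitomycin C, in 15% FBS with 1000 U/ml LIF and the 2i inhibitors CHIR99021 (3 μM) and PD0325901 (1 μM). Chromatin was cut to nucleosomes with MNase, lightly fixed with formaldehyde and precipitated with an antibody to H2AK119ub1 (Cell Signaling) or to H3K27me3 (Abcam). Chromatin of the feeder fibroblasts may have been present, and its part in the results was not tested. With 1 library per mark there was no replicate, so no p-value is given, and the 95% intervals (Wilson for shares, order statistics for medians) cover counting error over peaks only. Read totals were not used here, and sequencing depth is unknown.

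H2AK119ub1 is histone H2A with ubiquitin on a lysine of its C-terminal tail, placed by the RING1 ligases of Polycomb repressive complex 1 (PRC1), of which PCGF5 forms a variant type. H3K27me3 is histone H3 trimethylated on a lysine of its N-terminal tail, placed by the EZH enzymes of Polycomb repressive complex 2 (PRC2). CBX subunits of canonical PRC1 bind H3K27me3, and PRC2 with JARID2 can bind ubiquitinated H2A. In ES cells both marks are known from the CpG-rich promoters of silent developmental genes, while the active pluripotency genes lack them.

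To show an example of each class, the central 200 bases of the widest promoter peak of H2AK119ub1 with both marks, of H2AK119ub1 alone and of H3K27me3 alone were read from the mm9 genome (NCBIM37), forward strand, for peaks outside repeated sequence and with the printed bases outside exons. CG dinucleotides are in capitals, and each name gives the nearest gene and the printed interval.
H2AK119ub1 with both marks, Six3, chr17:86021881-86022080: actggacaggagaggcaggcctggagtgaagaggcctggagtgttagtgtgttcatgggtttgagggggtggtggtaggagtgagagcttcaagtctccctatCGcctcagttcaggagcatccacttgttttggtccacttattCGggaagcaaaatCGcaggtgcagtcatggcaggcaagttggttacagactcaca
H2AK119ub1 alone, Wt1, chr2:104968282-104968481: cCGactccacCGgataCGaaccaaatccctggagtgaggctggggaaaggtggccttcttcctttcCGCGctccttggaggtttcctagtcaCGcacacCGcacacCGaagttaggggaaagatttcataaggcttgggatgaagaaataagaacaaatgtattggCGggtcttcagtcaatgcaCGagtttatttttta
H3K27me3 alone, Adamts2, chr11:50416124-50416323: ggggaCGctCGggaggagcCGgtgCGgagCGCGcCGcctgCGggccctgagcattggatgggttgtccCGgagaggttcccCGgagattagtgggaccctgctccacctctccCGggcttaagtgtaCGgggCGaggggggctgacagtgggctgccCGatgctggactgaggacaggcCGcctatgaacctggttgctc
The Six3 peak was 3196 bp wide with a fold enrichment of 7.89, and its centre lay 1610 bp from the start site of Six3, a homeobox regulator of the forebrain and eye. The Wt1 peak was 1176 bp wide with a fold of 5.99, 1015 bp from the start of this zinc finger gene of kidney and gonad, and the nearest H3K27me3 peak was 338 bp away. The Adamts2 peak was 1841 bp wide with a fold of 5.36, 638 bp from the start of a gene for a procollagen protease, and an H2AK119ub1 peak lay 251 bp away. The printed bases held 3 CG dinucleotides at Six3, 10 at Wt1 and 15 at Adamts2, and 178, 188 and 187 distinct 6-base words of the 195 possible, so none of these stretches was simple sequence. The examples were chosen by width, and their CG counts ran against their classes for H2AK119ub1, whose median observed to expected CpG ratio around the peak centre was 0.364 with both marks and 0.184 alone.

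The highest-scoring peaks outside promoters had a different make-up. The central 200 bases of the highest-scoring H2AK119ub1 peak with both marks, H2AK119ub1 peak alone and H3K27me3 peak alone outside promoters (again outside repeated sequence and exons), and of the highest-scoring peak in the largest block of peaks with both marks, were as follows.
H2AK119ub1 with both marks, intron of Sfi1, chr11:3080113-3080312: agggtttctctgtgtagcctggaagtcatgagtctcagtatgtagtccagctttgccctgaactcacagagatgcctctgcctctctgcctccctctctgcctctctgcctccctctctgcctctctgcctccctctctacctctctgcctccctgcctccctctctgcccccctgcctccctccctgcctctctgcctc
H2AK119ub1 alone, intergenic near Prex1, chr2:166267313-166267512: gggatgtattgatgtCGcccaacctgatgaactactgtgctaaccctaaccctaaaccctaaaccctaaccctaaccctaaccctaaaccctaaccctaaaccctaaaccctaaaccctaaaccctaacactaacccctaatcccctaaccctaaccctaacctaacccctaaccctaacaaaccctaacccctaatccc
H3K27me3 alone, intergenic near Atp11b, chr3:35123942-35124141: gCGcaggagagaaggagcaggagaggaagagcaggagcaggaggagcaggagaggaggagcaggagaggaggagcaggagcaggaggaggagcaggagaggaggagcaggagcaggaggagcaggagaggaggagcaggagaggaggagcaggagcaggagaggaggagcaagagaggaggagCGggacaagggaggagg
H2AK119ub1 with both marks, block between Hrh1 and Atg7, chr6:114575380-114575579: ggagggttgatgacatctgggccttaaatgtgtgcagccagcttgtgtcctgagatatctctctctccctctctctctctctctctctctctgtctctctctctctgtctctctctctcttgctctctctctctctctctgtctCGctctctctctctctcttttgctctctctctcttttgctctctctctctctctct
These held 101, 71, 46 and 88 distinct 6-base words of 195, against a median of 185 in 5103 windows spread over the genome, and 0, 1, 2 and 1 CG dinucleotides. The most frequent 6-base word was tgcctc at Sfi1 (12 copies), ccctaa near Prex1 (21 copies), aggagc near Atp11b (15 copies) and ctctct in the block near Atg7 (19 copies). The peaks had scores (10 times the −log10 p) of 321, 231, 309 and 382 and folds of 3.41, 10.0, 7.61 and 5.81. The peak near Atp11b was 1220402 bp from any H2AK119ub1 peak, and that near Prex1 was 5638 bp from H3K27me3. The peaks at Sfi1, Prex1 and Atp11b lay outside sequence repeated elsewhere in the genome, by the definition of words given next, and the peak near Atg7 lay within it.

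Of the H2AK119ub1 peaks, 3365 carried both marks (38.8%, 37.8 to 39.8) and 5307 carried H2AK119ub1 alone. Of the H3K27me3 peaks, 3238 carried both marks (27.4%, 26.6 to 28.2) and 8570 carried H3K27me3 alone. The marks met in 3526 pairs of overlapping peaks, in which the median overlap was 203 bp and the centres lay a median of 104 bp apart. That overlap made up a median 89.3% of the H2AK119ub1 peak but 59.0% of the H3K27me3 peak, so most of the H2AK119ub1 peak lay within the H3K27me3 peak. Among the pairs outside repeated sequence the medians were lower, 75.0% and 46.5%, and the centres lay a median of 149 bp apart. Fold enrichment of the paired peaks went together moderately over all pairs (Spearman rho 0.395, Pearson r 0.470, across peaks of the same 2 libraries) and more weakly over the 2396 pairs outside repeated sequence (0.191 and 0.211).

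A peak was assigned to repeated sequence when over 50% of its 31-base words occurred at more than 1 place in the genome. Repeated sequence held 1099 of the H2AK119ub1 peaks with both marks (32.7%, 31.1 to 34.3) but 646 of those alone (12.2%, 11.3 to 13.1). In the H3K27me3 list it held 1030 with both marks (31.8%, 30.2 to 33.4) and 1136 alone (13.3%, 12.6 to 14.0). The single-mark classes were thus close to the 13.9% of genome windows that met the same definition, and the classes with both marks were above it. Simple sequence, with under 100 distinct 6-base words in the central 200 bases, held 21.3% and 11.1% of the H2AK119ub1 peaks with both marks and alone and 21.5% and 7.95% of the H3K27me3 peaks, against 1.06% of the genome windows. Outside repeated sequence these shares fell to between 1.87% and 3.43% in the 4 classes. Without peaks in repeated sequence the share with both marks was 32.7% of 6927 H2AK119ub1 peaks and 22.9% of 9642 H3K27me3 peaks. How reads from repeated sequence were placed is not given in the sources used here, and the part of read placement in these peaks was not tested.

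**Figure D1:**
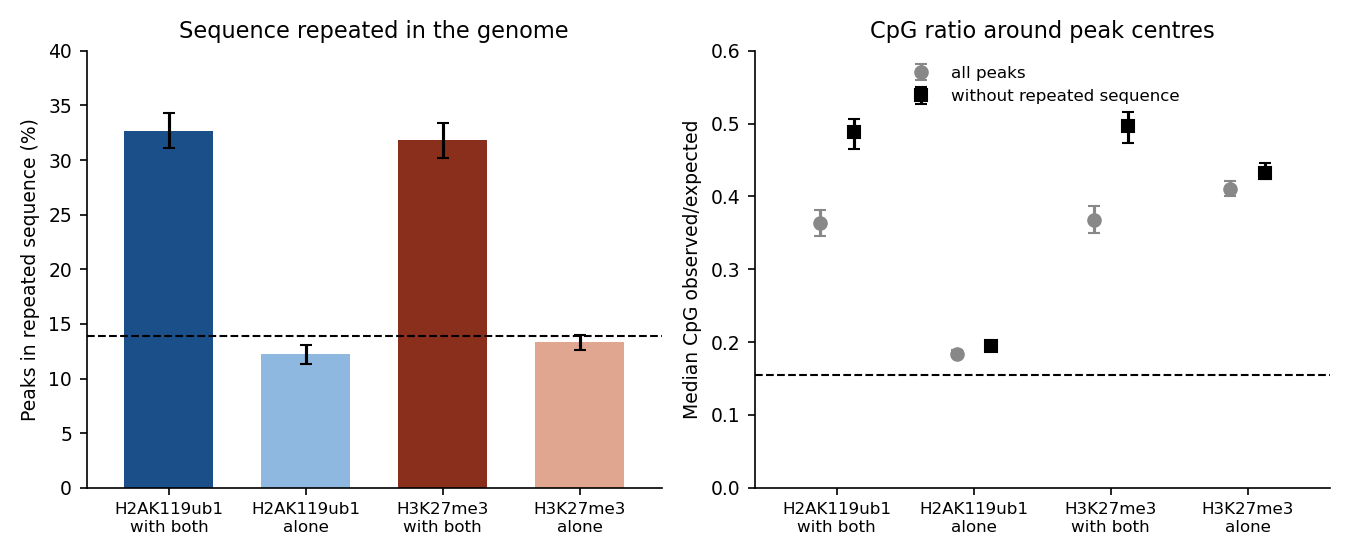
Left, share of peaks (%) in repeated sequence for the 4 classes, with 95% Wilson intervals and a dashed line at the 13.9% of genome windows; the classes with both marks reach 32.7% and 31.8% and those alone 12.2% and 13.3%. Right, median observed to expected CpG ratio in 500 bp around peak centres for all peaks (grey circles) and without peaks in repeated sequence (black squares), with 95% order-statistic intervals and a dashed line at the genome median of 0.155; H2AK119ub1 alone sits lowest at 0.184 and 0.195.

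The 4 classes lay in different parts of genes. Peaks centred no more than 2500 bp from where a protein-coding transcript begins (GENCODE M1) were called promoter peaks, and the others were placed in an exon, an intron or between genes. Promoters held 1415 of the H2AK119ub1 peaks with both marks (42.1%) but 1198 of those alone (22.6%), while introns held 20.7% and 35.2% and intergenic sequence 28.7% and 34.9%. By the same definition 5.33% of genome positions were promoter, 32.9% intron and 59.6% intergenic. Of the H3K27me3 peaks alone, 3834 were at promoters (44.7%), 1625 in introns and 2366 (27.6%) between genes. Of those with both marks 1361 (42.0%) were at promoters, a difference from alone of -2.71 percentage points, but without peaks in repeated sequence, with nearby peaks merged or with a 1000 bp gap counted as shared the order was the other way round. Outside repeated sequence the promoter share was 55.9% (53.8 to 57.9) for H2AK119ub1 with both marks, 24.1% for H2AK119ub1 alone, 55.2% for H3K27me3 with both marks and 49.1% for H3K27me3 alone. H2AK119ub1 alone was therefore the class most often outside promoters in either set of peaks. Exons held 7.29% to 8.69% of each class.

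**Figure D2:**
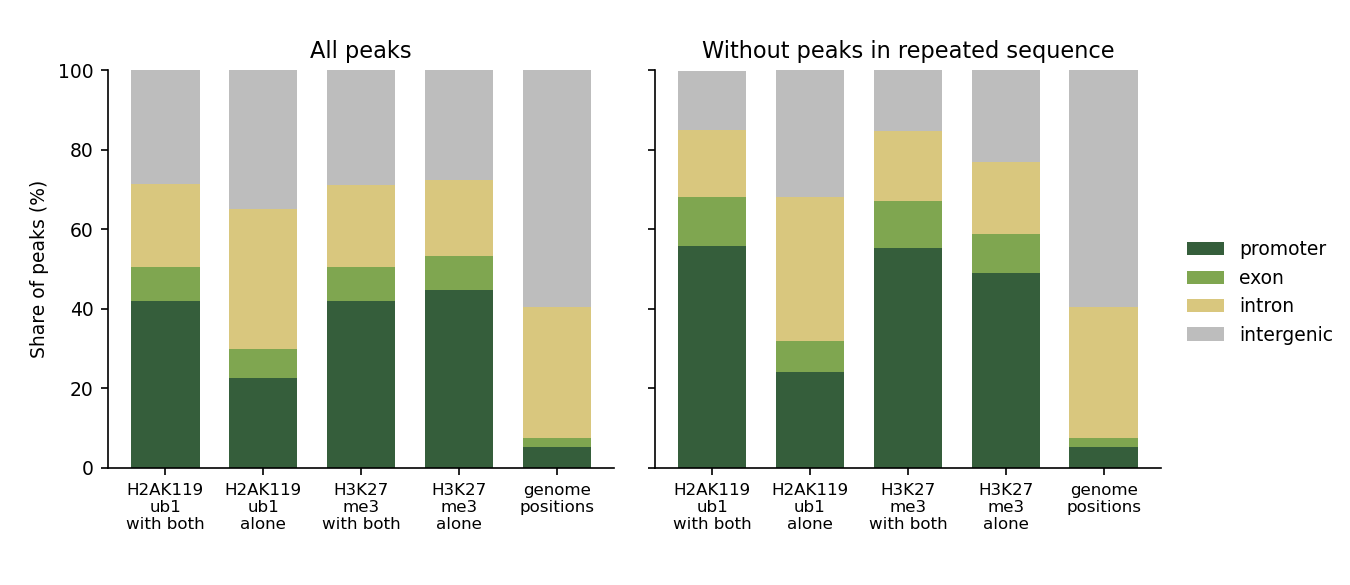
Stacked shares of peaks (%) at promoters, in exons, in introns and between genes for the 4 classes and for genome positions, with all peaks at left and without peaks in repeated sequence at right (the genome bar is the same in both). The promoter share of H2AK119ub1 alone is 22.6% and 24.1%, below the 42.1% and 55.9% of H2AK119ub1 with both marks.

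The sequence around the peaks followed the same split. The median observed to expected CpG ratio in 500 bp around the centre was 0.364 (0.345 to 0.382) for H2AK119ub1 with both marks and 0.184 (0.179 to 0.189) for H2AK119ub1 alone, against 0.155 in the genome. For H3K27me3 it was 0.368 (0.350 to 0.387) with both marks and 0.410 (0.400 to 0.421) alone, an order that turned round without peaks in repeated sequence (0.497 and 0.432). H2AK119ub1 alone was nevertheless GC-rich, with a median GC content of 54.2% against 41.6% in the genome, and 59.2%, 59.2% and 57.4% in the other classes. Windows that met a CpG island definition (GC over 50% and a ratio over 0.6) made up 4.71% of H2AK119ub1 peaks alone, 26.6% of those with both marks, 28.7% of H3K27me3 peaks with both marks and 31.7% of H3K27me3 peaks alone. At promoters only the shares were 13.4%, 43.5%, 47.8% and 51.5%, so H2AK119ub1 alone stood apart there too. Windows centred on start sites met the definition in 47.3% of cases, but peak centres lay at other positions, so that share is not like these. Distance from the start site also differed between the classes, as given next, and its part in the CpG shares was not tested.

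Within promoters the classes took different positions around the start site. The centre of H3K27me3 peaks alone lay a median of 500 bp from the nearest start site, that of peaks with both marks 777 bp (H3K27me3) and 789 bp (H2AK119ub1), and that of H2AK119ub1 peaks alone 1159 bp. Within 500 bp lay 50.0% of H3K27me3 promoter peaks alone but 19.4% of H2AK119ub1 promoter peaks alone, and between 1000 and 2500 bp lay 58.4% of the latter. Those 2 shares of H2AK119ub1 alone were close to what distances spread evenly over the 2500 bp would give. Such wide ranges do not show preferences on a finer scale, which are given below in steps of 250 bp. About the same share of every class was upstream, from 31.5% to 34.2%. Outside repeated sequence H3K27me3 alone was densest in the 250 bp just after the start site (19.7% of its promoter peaks), both classes with both marks between 250 and 500 bp after it (11.6% and 11.7%) and H2AK119ub1 alone between 1000 and 1250 bp after it (9.36%). Most H2AK119ub1 peaks alone at promoters nevertheless sat at genes that carried both marks somewhere in the window, 869 of 1198 (72.5%, 69.9 to 75.0), against 1397 of 3834 H3K27me3 peaks alone (36.4%, 34.9 to 38.0).

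**Figure D3:**
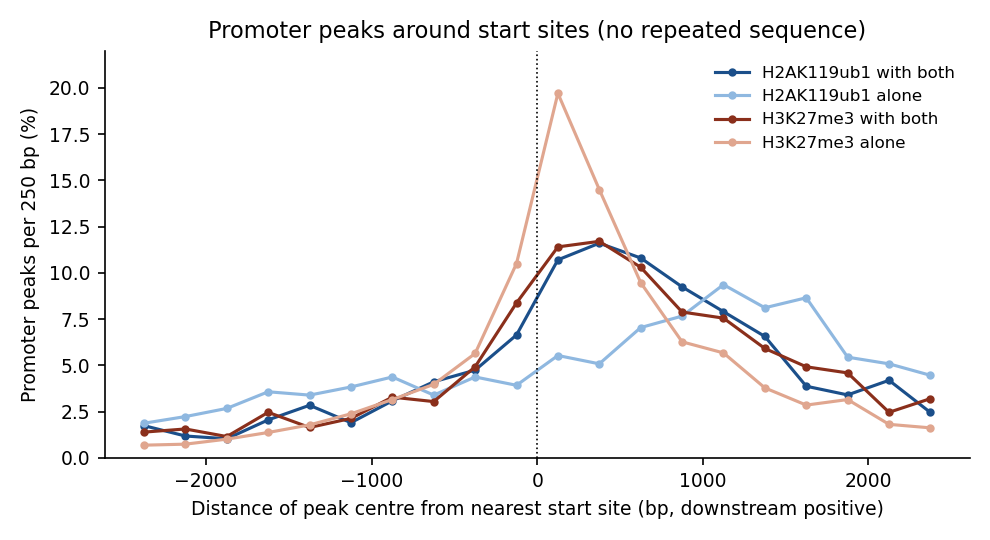
Promoter peaks outside repeated sequence by the distance of their centre from the nearest start site (bp, downstream positive), as a percentage of the promoter peaks of each class per 250 bp. H3K27me3 alone rises to 19.7% just after the start site, the classes with both marks to 11.6% and 11.7% between 250 and 500 bp, and H2AK119ub1 alone to 9.36% between 1000 and 1250 bp.

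Peaks with both marks were wider and more enriched than peaks alone. The median width was 278 bp (271 to 285) for H2AK119ub1 with both marks and 195 bp (191 to 198) alone, and 362 bp (350 to 375) and 244 bp (241 to 248) for H3K27me3. A wide peak has more bases at which an overlap can fall, so width is not independent of the class. The fold enrichment over the local background was a median of 5.02 with both marks and 4.30 alone for H2AK119ub1, and 4.75 and 4.30 for H3K27me3. Outside repeated sequence the medians were 286, 198, 392 and 250 bp for width and 4.93, 4.37, 4.56 and 4.30 for fold, in the same order of classes. The ranges overlapped widely, since, leaving out the lowest and the highest 10% of each class, folds ran from 3.52 to 6.81 for H2AK119ub1 with both marks and from 3.46 to 5.59 for H2AK119ub1 alone. H3K27me3 alone also held most of the weakest calls, with a q-value above 0.05 in 10.9% of its peaks, against 3.21% of H3K27me3 peaks with both marks and 0.433% and 0.119% of H2AK119ub1 peaks alone and with both marks.

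The widest peaks outside repeated sequence were mostly at promoters. For H2AK119ub1 with both marks they were the Six3 peak printed above and peaks at the homeobox genes Nkx6-1 (2843 bp, fold 6.45) and Nkx1-1 (2408 bp, fold 5.85). For H2AK119ub1 alone they lay 248 bp from the start of Cbln1, a synaptic organiser of the cerebellum (1467 bp, fold 6.81), between genes 2866 bp from the start of Hoxa11 (1333 bp, fold 5.32) and at the T-box gene Tbx2 (1283 bp, fold 4.52). For H3K27me3 with both marks they were at Nptx1, a neuronal pentraxin (3582 bp, fold 8.01), the imprinted gene Grb10 (3244 bp, fold 6.69) and Rbfox3, a neuronal splicing factor (3044 bp, fold 6.16). For H3K27me3 alone they were at Cpeb2, a regulator of translation (2200 bp, fold 5.63), between genes 15214 bp from Kif26a (1938 bp, fold 6.42) and at Adamts2. The widest peak alone was thus narrower than the third widest with both marks in either list. Including repeated sequence, the widest H2AK119ub1 peak with both marks (4861 bp, fold 8.33) and the widest H3K27me3 peak (7586 bp, fold 5.25) both lay between Gas8 and Rhou.

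The share with both marks rose with the score of the peak. In 10 equal groups by score it went from 20.3% in the lowest group to 85.1% in the highest for H2AK119ub1, and from 11.4% to 67.8% for H3K27me3. Outside repeated sequence the highest group reached 76.2% of 248 H2AK119ub1 peaks and 56.2% of 381 H3K27me3 peaks. The rise was not even, since the H2AK119ub1 share was 32.6% in the fifth group and 31.1% in the sixth, within their counting intervals. Promoters held 22.9% of the highest H2AK119ub1 group and 30.2% of the highest H3K27me3 group over all peaks, but 55.2% and 64.8% without repeated sequence, so the promoter share of the strongest peaks depended on whether repeated sequence was kept.

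**Figure D4:**
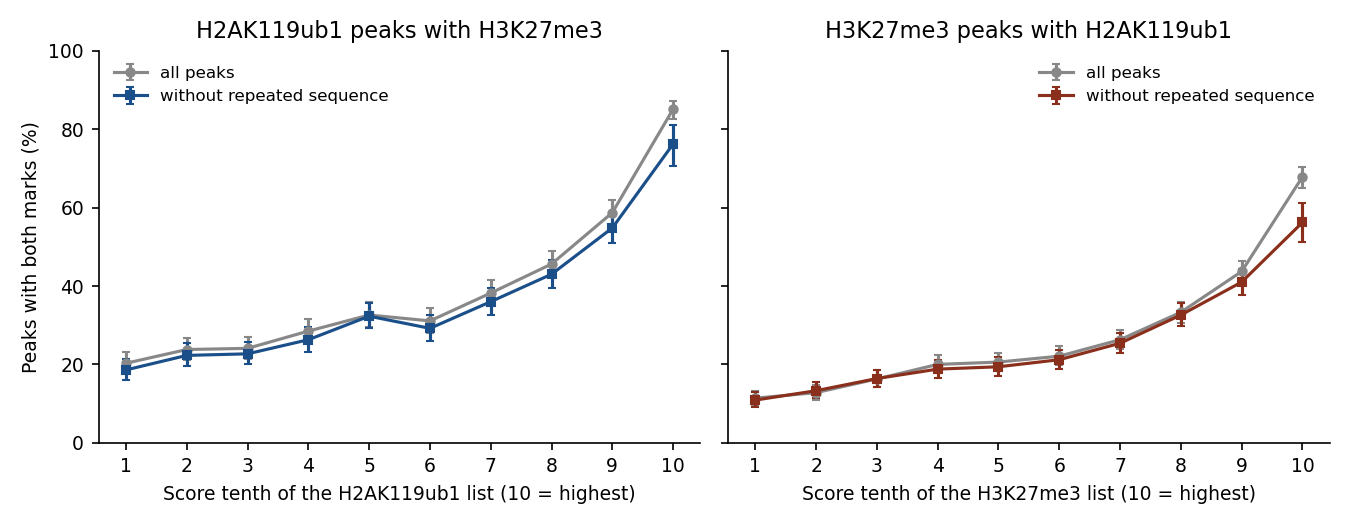
Share of peaks with both marks (%) in 10 equal groups by score (10 the highest) for H2AK119ub1 at left and H3K27me3 at right, over all peaks (grey) and without peaks in repeated sequence (colour), with 95% Wilson intervals. The share rises to 85.1% and 76.2% for H2AK119ub1 and to 67.8% and 56.2% for H3K27me3 in the highest group.

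Many peaks of 1 mark lay close to the other. An H3K27me3 peak was found within 1000 bp of 1380 of the 5307 H2AK119ub1 peaks alone (26.0%), within 10000 bp of 57.6% and within 50000 bp of 81.1%, with a median gap of 5620 bp. For H3K27me3 alone the shares were 19.4%, 43.6% and 59.6%, with a median gap of 19212 bp to the nearest H2AK119ub1 peak. The H2AK119ub1 list was the shorter (8672 against 11808 peaks), so H3K27me3 peaks had fewer peaks to lie near. Gaps were not compared with equal numbers of peaks, and the part of list length was not tested. When peaks of either mark within 10000 bp were joined, 7929 regions resulted. The 2555 regions with both marks (32.2%) took in 75.6% of H2AK119ub1 peaks and 60.0% of H3K27me3 peaks, had a median length of 3181 bp and covered a start site in 51.4% of cases (4899 bp and 64.5% without repeated sequence). The 1814 regions with H2AK119ub1 alone were mostly lone peaks (1595), with a median of 187 bp, and 13.5% covered a start site (188 bp and 14.8%). The 3560 regions with H3K27me3 alone were also mostly lone peaks (2759), with a median of 275 bp, but 43.3% covered a start site (301 bp and 52.0%).

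Some peaks with both marks came in blocks, and peaks alone were not searched for blocks by the same rule. In 20 blocks at least 10 H2AK119ub1 peaks with both marks followed each other, and these held 451 of the 3365 (13.4%). In 12 of the blocks, with 350 of these peaks (10.4%), most peaks were in repeated sequence, and the other 8 blocks held 101 (3.00%). The largest, chr6:114440648-114586340 between Hrh1 and Atg7, spanned 145693 bp with 147 H2AK119ub1 and 139 H3K27me3 peaks, of which 130 and 130 carried both marks, and 99.7% of its peaks were in repeated sequence whose words had a median of 52.0 copies in the genome. In the second, chr8:126061285-126148226 between Gas8 and Rhou, H2AK119ub1 peaks covered 87.0% and H3K27me3 peaks 92.3% of the bases, every peak was in repeated sequence, and the list's highest H3K27me3 fold (16.6) lay here. The block at chr6:47687091-47728220, between Ezh2 and Pdia4, had 29 H2AK119ub1 and 25 H3K27me3 peaks, all in repeated sequence. Blocks of the same kind took in the interferon genes at chr4:88407039-88452872 (21 H2AK119ub1 and 34 H3K27me3 peaks) and Dux, a homeobox gene of early embryos, at chr10:57683629-57702426 (18 and 16 peaks). The block near Gas8 lay within introns of 1 very long gene model, Gm20388 (chr8:122434741-126869622), and leaving out peaks that only this model placed in introns, the intron share of H2AK119ub1 peaks was 18.4% with both marks and 33.4% alone.

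The 8 blocks without repeated sequence all lay over developmental transcription factor genes. The HoxA block at chr6:52153932-52212539, from Hoxa3 to Hoxa13, held 40 H2AK119ub1 peaks, 22 with both marks, and 29 H3K27me3 peaks, 19 with both marks. H2AK119ub1 peaks covered 26.6% of its bases and H3K27me3 peaks 18.4%. The Lmx1b block, over a LIM homeobox gene of limb and midbrain at chr2:33483783-33499492, was denser, with 14 of 16 H2AK119ub1 peaks and 17 of 17 H3K27me3 peaks with both marks and 58.6% and 45.7% of the bases covered. The HoxD block at chr2:74514069-74545003 held 22 and 21 peaks, 12 and 13 of them with both marks. The remaining blocks lay over HoxB (at chr11:96144484-96174203 and chr11:96187052-96207547), Tbx1, Pax7 and Ebf3. No peak in any of these blocks was in repeated sequence.

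Windows crowded with peaks of H2AK119ub1 alone also held peaks with both marks. Outside repeated sequence 4661 of all 6927 H2AK119ub1 peaks were alone. The 1 Mb window with most H2AK119ub1 peaks alone outside repeated sequence was chr7:150000001-151000000, around the imprinted genes Cdkn1c, an inhibitor of the cell cycle, and Kcnq1, a potassium channel. It held 140 H2AK119ub1 peaks, 109 alone and 31 with both marks. Of those 109, 95 lay within 10000 bp of an H3K27me3 peak and 10 were at promoters. The window before it, with the imprinted growth factor gene Igf2 and with Ins2, held 69 peaks with H2AK119ub1 alone of 84. The window at chr4:153000001-154000000 with Prdm16, Megf6 and Trp73 held 63 of 70, and that at chr8:123000001-124000000 with the forkhead genes Foxf1a and Foxc2 held 62 of 80. The HoxA window on chromosome 6 held 33 of 61, with 28 carrying both marks, so its H2AK119ub1 peaks were more evenly divided between the classes. These windows were chosen by that count, and it was not tested against the density of peaks.

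Genes were compared by a looser rule than peaks, since peaks of the 2 marks at a gene need not overlap. The gene shares below are therefore not like the peak shares above. Of promoter peaks, 1415 of 2613 for H2AK119ub1 and 1361 of 5195 for H3K27me3 overlapped the other mark. A gene was taken to carry a mark when it had a promoter peak of that mark at any of its protein-coding transcripts. Of 22232 protein-coding genes, 1187 carried both marks (5.34%), 301 H2AK119ub1 alone (1.35%) and 1789 H3K27me3 alone (8.05%), so that 3277 (14.7%) carried any mark. Of the 1488 genes with H2AK119ub1, 79.8% (77.7 to 81.7) also carried H3K27me3, and of the 2976 with H3K27me3, 39.9% (38.1 to 41.7) also carried H2AK119ub1. In 886 of the 1187 genes with both marks (74.6%) the peaks overlapped, and in the rest they lay apart within the window. Genes with both marks had a median of 390 bp of H2AK119ub1 and 922 bp of H3K27me3 peaks, while genes with 1 mark had 200 bp of H2AK119ub1 or 422 bp of H3K27me3. A start site that met the CpG island definition was present in 75.1% of genes with both marks and 68.4% with H3K27me3 alone, but in 49.5% with H2AK119ub1 alone, near the 50.2% of genes with neither. Of the genes with H2AK119ub1 alone, 66.1% had an H3K27me3 peak within 50000 bp of the start site, against 30.5% of genes with H3K27me3 alone that had H2AK119ub1. The H2AK119ub1 list was the shorter, and the part of list length in this difference was not tested. A peak in the window of more than 1 gene was counted for each, which concerned 156 H2AK119ub1 genes (10.5%) and 337 H3K27me3 genes (11.3%).

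The lists with the largest share of genes with both marks were of developmental regulators. Among all protein-coding genes 5.34% carried both marks, 1.35% H2AK119ub1 alone and 8.05% H3K27me3 alone. Both marks were present at 29 of 39 Hox genes (74.4%), the regulators of position along the body axis, with 2 more carrying H2AK119ub1 alone and 5 H3K27me3 alone. Hoxa9 had 6 H2AK119ub1 peaks of 2760 bp in all with a highest fold of 8.60, and 6 H3K27me3 peaks of 1645 bp with a highest fold of 6.16. Hoxd11 had 2883 bp and 1594 bp with folds of 8.24 and 5.89, whereas Hoxb7 had the higher fold in H3K27me3 (6.09 and 7.75). Hoxb13, with H2AK119ub1 alone, had 1 peak of 170 bp with a fold of 3.47. The Hox genes above were named for their high folds, so its fold is not compared with theirs. Among 100 other homeobox regulators, 72 carried both marks, 2 H2AK119ub1 alone and 17 H3K27me3 alone. Lmx1b had the highest H2AK119ub1 fold of the list (9.68, 5885 bp), with 10 H3K27me3 peaks of 4755 bp and fold 6.16. Pax6, a regulator of eye and neural precursors, had 9 H2AK119ub1 peaks of 4747 bp (fold 8.96) and 12 H3K27me3 peaks of 4348 bp (fold 5.89). The 2 with H2AK119ub1 alone were Irx6 (293 bp, fold 4.58) and Cdx1 (401 bp, fold 3.19).

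In other families of transcription factors both marks were present at 10 of 22 GATA and T-box factors, 10 of 18 Sox factors, 16 of 37 proneural and mesodermal bHLH factors and 14 of 40 forkhead factors. H3K27me3 alone was present at 5, 2, 11 and 9 of these, and H2AK119ub1 alone at 0, 0, 0 and 2 (Foxk1 and Foxo3). The shares over all protein-coding genes were 5.34% with both marks, 8.05% with H3K27me3 alone and 1.35% with H2AK119ub1 alone. With so low a share for H2AK119ub1 alone, counts of 0 to 2 in lists of this size cannot be read as a difference. Gata2, a regulator of blood progenitors, had 5 H2AK119ub1 peaks of 2383 bp (fold 6.81) and 5 H3K27me3 peaks of 3852 bp (fold 5.63). Tbx4, a hindlimb factor, had 3012 bp (fold 7.20) and 2626 bp (fold 6.38). Sox4 had 1 peak of each mark (581 bp with fold 7.89, and 539 bp with fold 4.83), so breadth and fold did not always go together. Neurod2, a neuronal bHLH factor, had 1636 bp (fold 7.53) and 2140 bp (fold 6.95). Eomes, a regulator of mesendoderm, carried H3K27me3 alone (2 peaks of 524 bp, fold 4.56), with an H2AK119ub1 peak 2699 bp from its start site, just outside the window.

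Among signalling genes the ligands of the Wnt family came first, with both marks at 12 of 19, H3K27me3 alone at 4 and H2AK119ub1 alone at 0. Wnt1 had 4 H2AK119ub1 peaks (1145 bp, fold 6.81) and 5 H3K27me3 peaks (2304 bp, fold 6.95). Both marks were present at 4 of 15 Hedgehog pathway and Zic genes, 9 of 41 TGF-beta and BMP ligands and antagonists and 4 of 22 FGF ligands, with H3K27me3 alone at 5, 8 and 10. Over all protein-coding genes the shares were 5.34% with both marks, 8.05% with H3K27me3 alone and 1.35% with H2AK119ub1 alone. Shh and Ihh, Hedgehog ligands, carried both marks (folds 5.63 and 5.63 at Shh, 7.17 and 6.69 at Ihh), whereas the receptor gene Ptch1 carried H3K27me3 alone (4 peaks, 1207 bp, fold 5.36) and lay 313308 bp from H2AK119ub1. Fgf8 had folds of 7.89 and 7.22, Fgf5 only an H3K27me3 peak of 628 bp (fold 4.83), and Fgf4 only an H2AK119ub1 peak of 139 bp (fold 4.30). The BMP antagonist Fst had folds of 5.38 and 6.16. FGF ligands were thus marked at a rate near that of the Sox, GATA and T-box lists (68.2% with any mark) but mostly by H3K27me3 alone.

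Lists outside development are given beside the shares of all protein-coding genes, 5.34% with both marks, 1.35% with H2AK119ub1 alone and 8.05% with H3K27me3 alone. Of 76 potassium channel genes, which act in excitable cells, 22 carried both marks (28.9%), 26 H3K27me3 alone (34.2%) and 2 H2AK119ub1 alone (2.63%). Kcnc1 had 1 H2AK119ub1 peak of 614 bp (fold 5.38) and 4 H3K27me3 peaks of 2471 bp (fold 7.22). Of 40 germline genes, 10 carried H3K27me3 alone (25.0%), while the 3 with both marks (7.50%) and the 1, Tex101, with H2AK119ub1 alone (2.50%) were near the shares of all genes. Ddx4, a helicase of germ cells, had 2 H3K27me3 peaks of 618 bp (fold 5.09) and its nearest H2AK119ub1 peak was 98150 bp away. Among 33 Polycomb complex genes, H3K27me3 alone was present at Pcgf5, Yaf2, Kdm2b and Auts2 (12.1%) and both marks at 6.06%, near the shares of all genes. Cbx8, a subunit of canonical PRC1, carried both marks, with folds of 6.09 for H2AK119ub1 and 6.16 for H3K27me3.

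**Figure D5:**
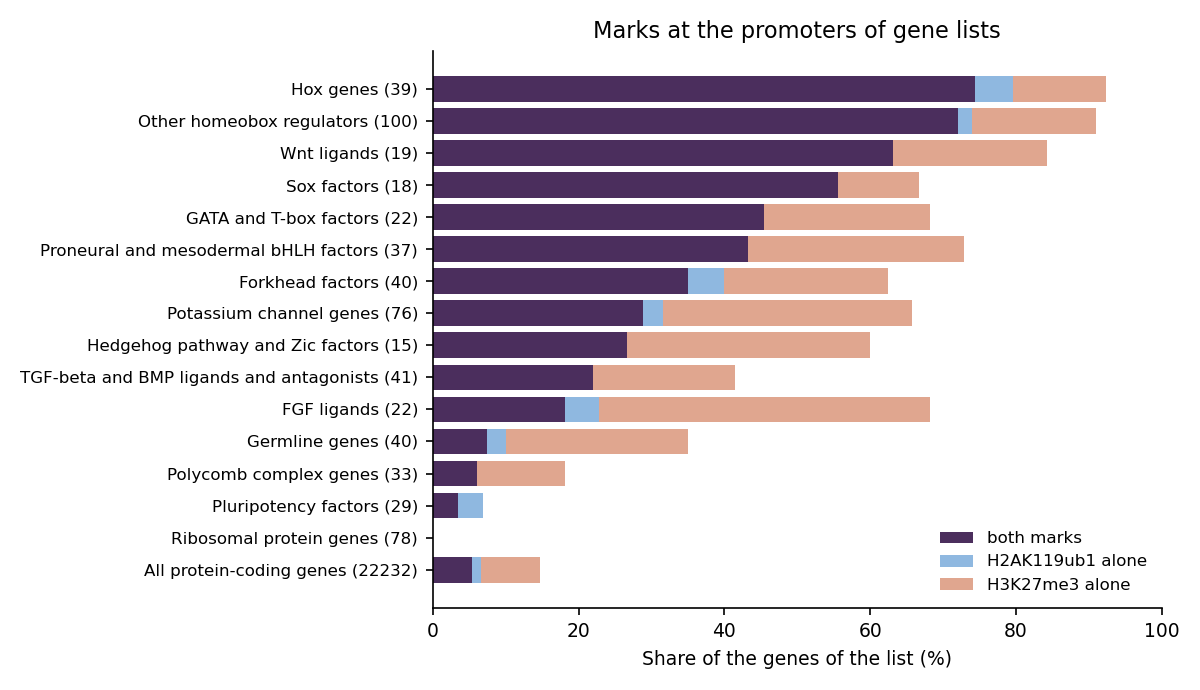
Share of the genes of each list (%, number of genes in parentheses) with both marks (purple), H2AK119ub1 alone (blue) or H3K27me3 alone (orange) within 2500 bp of a start site. Both marks reach 74.4% of Hox genes and 72.0% of other homeobox regulators, against 5.34% of all protein-coding genes and 0 of 78 ribosomal protein genes.

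Of all protein-coding genes, 85.3% carried neither mark, and lists of genes active in ES cells are read against that share. No mark was present at 78 of 78 ribosomal protein genes and at 27 of 29 pluripotency factors, the latter not far from all genes. The exceptions were Esrrb, an orphan receptor of naive ES cells, with 1 H2AK119ub1 peak of 212 bp (fold 4.30) and 3 H3K27me3 peaks of 1340 bp (fold 5.63), and Fgf4. Of the 9 ES markers matched by name, 8 carried neither mark, near the share of all genes, so this count does not tell whether the cells were as labelled. Of 8 fibroblast markers, Twist2 carried both marks (folds 4.30 and 5.04), Thy1 carried H3K27me3 alone (fold 4.56), and Col1a1, Col1a2, Col3a1, Prrx1, Snai2 and Pdgfrb carried neither. Of the 7 genes matched among those the study followed one by one, 4 carried 1 mark and 3 neither (57.1% with any mark, against 14.7% of all genes), and none carried both. Nes, an intermediate filament gene of neural precursors, had 1 H2AK119ub1 peak of 155 bp (fold 3.94) and its nearest H3K27me3 peak was 25434 bp away. Pou3f2, a neural POU factor, had 2 H3K27me3 peaks of 901 bp (fold 4.83) with H2AK119ub1 3015 bp from its start site. Cdh2, the N-cadherin gene, had 1 H3K27me3 peak of 330 bp (fold 4.83), and Pcgf5 itself had 2 of 382 bp in all (fold 4.56). Nodal, Lefty1 and Lefty2, genes of the TGF-beta pathway, carried neither. The nearest H2AK119ub1 and H3K27me3 peaks lay 177182 and 177089 bp from the Nodal start site. The study also measured both marks by ChIP-qPCR at the promoters of these genes and of Nes, Cdh2 and Pou3f2. It reported less H2AK119ub1 at Lefty1 and Lefty2 in PCGF5-deficient ES cells. The lack of a called peak here therefore does not mean that a mark was absent. Sox1 was not matched by name and is not analysed here.

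The genes that ranked first in each class were mostly of another kind. By the lower of the ranks in the 2 lists, the first 10 genes with both marks were Muc19, Gm10807, Gm13279, Gm13285, Gm3715, 4933403O03Rik, Dux, Stk32c, Flg and H2-Q7, and in 9 of these every peak was in repeated sequence. The exception was Stk32c, a kinase gene, with 2 of 5 H2AK119ub1 peaks in repeated sequence and folds of 8.24 and 14.6. Flg, the filaggrin gene of skin, had 9 H2AK119ub1 peaks of 4652 bp and 12 H3K27me3 peaks of 5991 bp. Without repeated sequence, a choice made after the values were seen, the first 10 were Sema5b, Zfp579, Fgf8, Lhx2, Lhx5, Mpp7, Neurod2, Ihh, Lhx1 and Mn1. Lhx2, a LIM homeobox gene of the forebrain, had 8 H2AK119ub1 peaks of 4179 bp (fold 7.75) and 10 H3K27me3 peaks of 3481 bp (fold 7.48). Sema5b, a guidance molecule of axons, had 1530 bp (fold 7.62) and 3725 bp (fold 7.23).

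The first 10 genes with H2AK119ub1 alone had lower scores. They were Fgd3, Itfg3, Resp18, BC053393, 1200009I06Rik, 8030474K03Rik, Ccdc64, B230208H17Rik, Rnf157 and Tex19.2. None is in the developmental lists, but neither is any of the first 10 in the other classes over all peaks. This does not set the class apart. Fgd3 had 1 peak of 140 bp with a fold of 7.39 and lay 51156 bp from H3K27me3, and the peaks of Itfg3, Resp18 and BC053393 were in repeated sequence. The gene 1200009I06Rik had the broadest cover, 3 peaks of 847 bp with a fold of 6.45, and an H3K27me3 peak 4327 bp from its start site. The first 10 with H3K27me3 alone were Gm2237, Gm3739, Gm1973, Gm2963, Gm8348, Erg, Gm3020, Pxdn, Clcn4-2 and Fam46a, the Gm genes lying on chromosome 14 with all their peaks in repeated sequence. Erg, an ETS factor of endothelium and blood, had 2 peaks of 765 bp with a fold of 7.75, 9256 bp from H2AK119ub1. Pxdn, a peroxidase of the basement membrane, had 1 of 649 bp with a fold of 7.48.

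The classes also differed in how often they were met again in the other lists of the series, each from 1 library of other cells. These were wild type cells after neural differentiation in suspension (NPC), ES and NPC labelled shPCGF5, which the methods describe as picked clonal clusters after lentiviral shRNA, and Flag ChIP of PCGF5 in cells with a Flag tag on the gene. In NPC, an H3K27me3 peak overlapped 32.0% of all H2AK119ub1 peaks of ES, namely 54.9% of those with both marks and 17.5% of those alone. For the H3K27me3 peaks of ES it was 43.0% in all, 54.4% with both marks and 38.7% alone. An H2AK119ub1 peak of NPC overlapped 16.4% of H2AK119ub1 peaks of ES (26.6% with both marks, 10.0% alone) and 13.3% of H3K27me3 peaks (27.3% and 7.93%). Outside repeated sequence the H3K27me3 list of NPC covered 67.9% of H2AK119ub1 peaks with both marks and 19.3% of those alone, a wider gap than over all peaks.

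In PCGF5-depleted ES cells an H2AK119ub1 peak overlapped 25.2% of the wild type H2AK119ub1 peaks, 43.6% with both marks and 13.6% alone. An H3K27me3 peak overlapped 35.1% of the wild type H3K27me3 peaks, 54.7% with both marks and 27.8% alone. Across the marks, H3K27me3 in depleted ES overlapped 26.4% of the H2AK119ub1 peaks (53.0% and 9.48%), and H2AK119ub1 in depleted ES overlapped 17.7% of the H3K27me3 peaks (44.0% and 7.72%). Outside repeated sequence the gap between the classes was narrower in these lists, with 37.8% and 13.1% for H2AK119ub1 peaks met by H2AK119ub1, 50.3% and 28.2% for H3K27me3 peaks met by H3K27me3, and 47.2% and 9.50% for H2AK119ub1 peaks met by H3K27me3. In PCGF5-depleted NPC the H3K27me3 list overlapped 35.8% of the H2AK119ub1 peaks (63.3% and 18.4%) and 44.8% of the H3K27me3 peaks (63.8% and 37.7%), and the H2AK119ub1 list overlapped 15.0% of the H2AK119ub1 peaks and 13.0% of the H3K27me3 peaks (30.8% and 6.24%). A peak with both marks in wild type ES cells was thus met again more often than a peak alone in each of the 6 H2AK119ub1 and H3K27me3 lists compared. Peaks with both marks were also wider and higher-scoring, as given above, and the part of width and score was not tested. For lists of the other mark, overlap with that mark in wild type ES cells had already defined the class. With 1 library of each kind, a difference between cells and a difference between libraries cannot be told apart. PCGF5 peaks of NPC overlapped 4.72% of the H2AK119ub1 peaks (6.21% with both marks, 3.77% alone) and 5.56% of the H3K27me3 peaks (6.58% and 5.18%), the order of the latter turning round in the higher-scoring 50% of each list. PCGF5 peaks of ES overlapped 0.438% and 0.356%, too few to compare the classes.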

How the data were processed

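ChIP-seq peak lists of 10 libraries were analysed, 2 of them in the comparison. Per the methods and labels, the authors used Trimmomatic for trimming, Bowtie2 for alignment to mm9, Picard against duplicates and MACS2 2.1.0 for peaks, library by library. Replicates were not pooled, and whether an input was given to the caller is not given in the sources used here. Each deposited list holds a score (10 times the −log10 p, rounded down), the fold enrichment ratio over the local background, and −log10 p-values and −log10 q-values. The lists reach beyond a q-value of 0.05, which 27 H2AK119ub1 and 1040 H3K27me3 peaks exceeded.

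Peaks were intersected at 1 bp and placed by their centre against GENCODE M1 on NCBIM37, the genome of mm9, with Python 3.11.15, numpy 2.4.6, pandas 2.3.3 and scipy 1.17.1. Overlap code was tested on 9 simulated sets and against bedtools 2.31.1 (4 counts), with 0 differences. Named genes were the 10 of each class ranked first by score (for both marks, by the lower of the 2 rank percentiles), at most 5 members per list by highest fold, the genes the study followed, and members of lists named to account for their counts, which were chosen after their values were seen. Sequences were read from NCBIM37. The members and the gene lists were chosen with earlier results of these data known. Of the listed symbols, Sox1, Foxf1, Foxl1, Tfcp2l1, Rpl41, Meioc and Rhox5 were not matched.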

Additional observations from a re-analysis of the deposited data

How the results depend on the processing

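H2AK119ub1 peaks with both marks remained wider, more enriched, richer in CpG and more often at promoters than those alone under all 7 alternatives for the medians and all 9 for the promoter share, and so did the width and fold of H3K27me3 peaks. The promoter share of H3K27me3 peaks, lower with both marks than alone, turned round when a gap of 1000 bp counted as shared (2.39 percentage points), when peaks within 1000 bp were merged (1.92) and without repeated sequence (6.07), and so did the difference of their CpG ratio without repeated sequence (0.0651). Leaving out repeated sequence was chosen after seeing the data.

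The share of H2AK119ub1 and H3K27me3 peaks with both marks was 41.4% and 28.7% in the higher-scoring 50% of each list, 34.5% and 32.5% with equal numbers of top-scoring peaks, 31.7% and 17.9% when 50% of the peak had to be covered, 54.7% and 41.5% with a gap of 1000 bp, and 32.7% and 22.9% without repeated sequence. It was 36.9% for H2AK119ub1 with peaks merged, and 29.1% for H3K27me3 with a q-value under 0.05.

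The promoter share of H2AK119ub1 with both marks, H2AK119ub1 alone, H3K27me3 with both marks and H3K27me3 alone was 37.3%, 28.4%, 37.3% and 51.1% in the higher-scoring 50%, 25.1%, 9.38%, 25.0% and 32.6% in a 1000 bp window, and 55.9%, 24.1%, 55.2% and 49.1% without repeated sequence. For H2AK119ub1 alone and H3K27me3 alone it was 23.9% and 48.2% with equal numbers and 18.1% and 38.5% with peaks merged. With 50% of the peak covered it was 25.1% for H2AK119ub1 alone, 35.7% for H3K27me3 with both marks and 45.8% for H3K27me3 alone, and with a gap of 1000 bp 14.6%, 45.4% and 43.0%. Genes with both marks numbered 670 in the higher-scoring 50% and 778 in the 1000 bp window, and genes with H2AK119ub1 alone 198 in that window. Of the 73 values of these shares and gene counts under alternatives, 36 moved by less than their counting interval (or 1.5 times for a count) and 37 by more. The cause of these shifts was not tested beyond what each setting itself changes.

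No paired analysis was possible because each mark had 1 library and the labels give no replicate numbers. For the same reason no replicate was left out, and no spread between cultures is known. The classes rest on peak calls in 2 libraries whose depths are not known here. Peaks called at many copies of a repeat are not independent observations.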
